A study of Mus musculus with 6 samples.

Results

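The T helper lineage transcription factors Tbx21, Eomes, Gata3, Bcl6, Runx3, Runx1, Hlx, Prdm1 and Maf are described here in Th9 cells that did or did not carry Irf1. These 9 genes were chosen by name, for their known part in T helper cell fate, out of 41388 genes in the deposited table. The naming rule uses no measured value, but the factors were picked with earlier results of these data known. The samples were 3 WT and 3 Irf1-/- cultures. Each held T cells of the C57BL/6 background, taken from spleen and lymph nodes of 8 to 12-week-old mice by negative magnetic selection, and grown for 2 days with IL-2, IL-4, TGF-β and 5 ng per ml of IFN-γ. Per the study's methods these were naive CD4+ T cells, and its Th9 cultures were primed with antibodies to CD3 and CD28 together with an antibody to mouse IFN-γ. A selection for CD4+ cells would remove CD8 T, B, plasma and myeloid cells, whose markers are given where they move with a result. All cultures received IFN-γ, so that the comparison shows the difference between genotypes under IFN-γ and not the response to it. The Irf1 deletion was carried by the whole mouse, and the T cells had developed without Irf1 before the culture began. The study calls its RNA-Seq samples independent biological samples, the labels do not say whether each culture came from its own mouse, and p-values measure the spread between these cultures.

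A CD4 T cell that meets antigen takes 1 of several fates, and each fate is held by a factor that switches on its own programme and holds back others. T-bet, encoded by Tbx21, directs Th1 cells and GATA-3 directs Th2 cells, BCL-6 directs follicular helper (Tfh) cells, and Blimp-1, encoded by Prdm1, acts against BCL-6. Th9 cells arise under IL-4 with TGF-β, make IL-9 and have no single such factor. IFN-γ, the Th1 cytokine, acts in part through IRF1, a factor that binds interferon-stimulated response elements (ISRE).

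Of the 9 factors, 8 had a mean normalized count of at least 10 and entered the fit, and Hlx did not. A normalized count is a read count scaled to the size of its library. Prdm1 passed this minimum only through its WT values and is described without a test. Of the 7 factors that averaged 10 or more in both genotypes, 4 were lower in Irf1-/- cells, Tbx21, Eomes, Bcl6 and Runx1, and 2 were higher, Maf and Runx3, at an adjusted p below 0.05 in limma (Benjamini-Hochberg over all 11379 genes tested). Gata3 was not called. The genes tested needed a mean of 10 over all libraries, not in both genotypes. Among all of them 12.4% were called lower, 11.4% higher and 23.7% in either direction, beside 6 of these 7 factors. WT and Irf1-/- values were apart, without overlap, for the same 6 factors, against 40.5% of all genes. The median log2 fold change of the 7 factors was -0.26, and their median size without sign was 0.36 against 0.17 over all genes. Without WT replicate 1, or without WT replicate 2, the calls were 1 lower, Eomes, and 1 higher, Maf, and without Irf1-/- replicate 1, or without Irf1-/- replicate 2, they were 3 lower and 1 higher. These counts are a description, since the factors were chosen with results known.

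**Figure D1:**
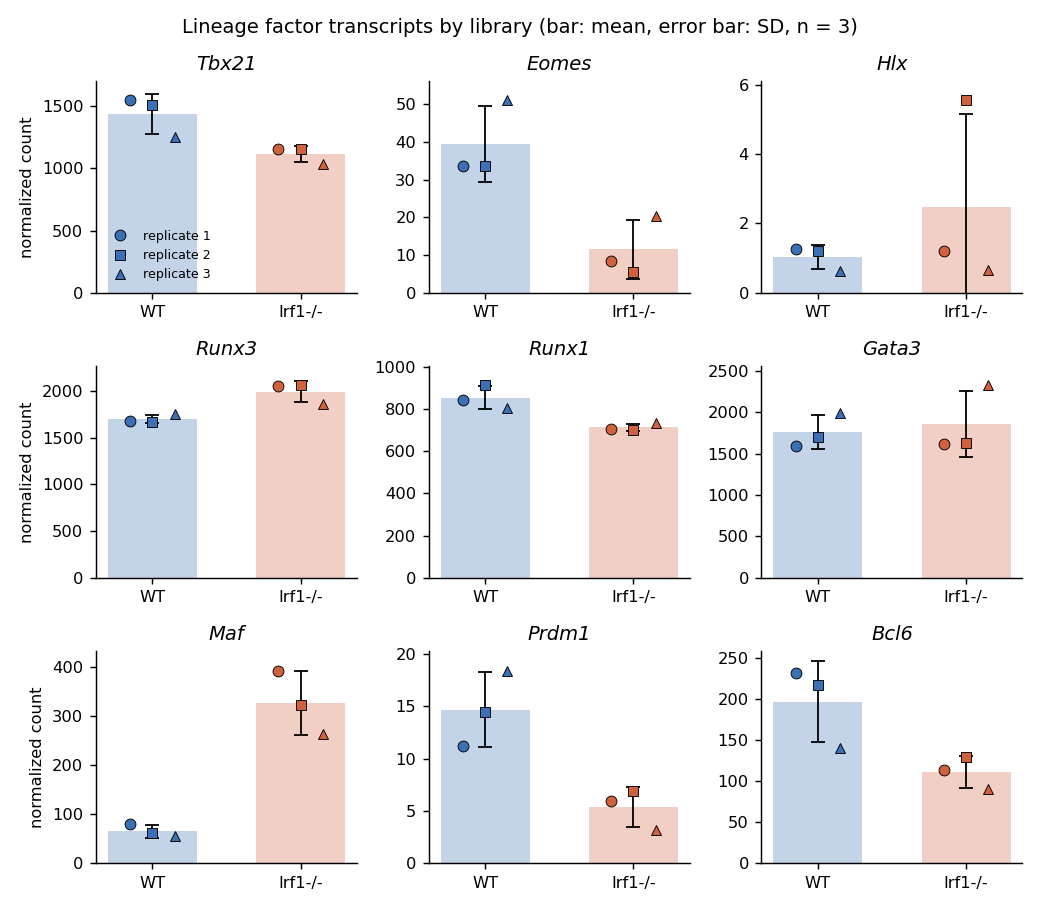
Normalized counts of the 9 factors in each of the 6 libraries, one panel per gene with its own linear axis starting at 0. Bars are means and error bars SD (n = 3), points are libraries, and the lower end of the Hlx error bar in Irf1-/- cells is cut at 0. Maf lies between 54.1 and 79.9 in WT and between 262.7 and 392.8 in Irf1-/- libraries, and Gata3 shows overlapping groups.

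The libraries held 5639788 to 13348230 reads on genes, and replicate 3 of each genotype was the deepest. Irf1 itself stayed at 58.4% of its WT level in Irf1-/- cells (1662 ± 163 against 2845 ± 163, SD, n = 3), and reads over the whole gene were counted, so that the deleted part was not examined. Y-linked transcripts were present in WT replicates 1 and 2, and Xist, which is made in female cells, in WT replicate 3 and all Irf1-/- libraries. Sex of the source mice and genotype therefore cannot be fully told apart, and the values within the Xist-holding libraries are given beside the results on the factors, their ratios and the lists. In those 4 libraries Maf alone of the 8 factors was called, and 392 genes were lower and 392 higher. There WT is represented by replicate 3 alone, which is assumed to vary like the Irf1-/- group. Within each genotype replicates 1 and 2 were the closest pair. Their chi-square per degree of freedom, 1 under counting noise alone, was 1.28 in WT and 1.79 in Irf1-/- cells. Pairs with replicate 3 gave 5.96 to 7.28, but this measure rises with depth and replicate 3 was the deepest. When replicates 1 and 2 were averaged as 1 sample, a choice made after seeing the data, Maf alone was called. The 7 CD4 T cell markers summed to between 15865 and 16954 in WT and between 15558 and 16089 in Irf1-/- libraries. The 4 NK cell markers summed to at most 2.39 in any library, with Ncr1 and Klrb1c at 0 throughout. The 8 myeloid markers summed to 52.4, 153.9 and 54.1 in WT and to 199.4, 730.9 and 42.8 in Irf1-/- replicates 1, 2 and 3, and Lyz2 made up 558.9 of the highest sum.

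Promoter sequence is shown for Eomes and Bcl6, since both genes fell and their windows hold the letters of sites for interferon-activated factors. A window is the 250 bases upstream of a transcription start in RefSeq on the mouse genome GRCm38.p6, 5′ to 3′ on the strand of the gene. Capitals mark matches to the ISRE core, spelled AANNGAAA on either strand, or to the gamma-activated site (GAS) of STAT factors, spelled TTCNNNGAA. Neighbouring matches that overlap run together.
Eomes, chr9:118477939-118478188, + strand: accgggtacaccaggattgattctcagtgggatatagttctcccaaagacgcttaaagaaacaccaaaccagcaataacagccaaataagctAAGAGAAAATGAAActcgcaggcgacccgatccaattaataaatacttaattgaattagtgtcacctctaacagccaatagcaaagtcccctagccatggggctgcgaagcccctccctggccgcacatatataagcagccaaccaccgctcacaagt
Bcl6, chr16:23981284-23981533, - strand: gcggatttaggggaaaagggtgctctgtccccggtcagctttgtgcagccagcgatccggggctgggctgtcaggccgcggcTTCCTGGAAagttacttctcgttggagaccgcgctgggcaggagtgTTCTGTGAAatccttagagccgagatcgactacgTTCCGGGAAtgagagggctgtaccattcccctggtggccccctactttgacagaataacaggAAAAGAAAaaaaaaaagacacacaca
Bcl6, chr16:23988853-23989102, - strand: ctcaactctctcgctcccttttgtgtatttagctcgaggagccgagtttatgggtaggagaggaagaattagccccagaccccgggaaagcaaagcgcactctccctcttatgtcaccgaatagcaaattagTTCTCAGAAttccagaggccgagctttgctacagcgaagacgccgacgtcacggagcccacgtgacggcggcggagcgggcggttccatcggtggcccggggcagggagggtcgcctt

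The Eomes window held 2 ISRE cores, AAGAGAAA and AAATGAAA, which overlap and start 158 and 152 bases upstream of the start site. The first Bcl6 window held 3 GAS matches, TTCCTGGAA, TTCTGTGAA and TTCCGGGAA, at 168, 122 and 88 bases upstream, and 1 ISRE core at 26 bases inside a run of A. The second Bcl6 window held 1 GAS match, TTCTCAGAA, at 118 bases. Outside these, the Runx1 window that starts at 92826075 on chromosome 16 held 2 ISRE cores and the Hlx window 1, while the windows of Tbx21, which also fell, and of Prdm1 held neither motif. Over the 11 windows of the 8 factors with an entry, 4 (36.4%) held an ISRE core and 2 (18.2%) a GAS match, beside 21.3% and 7.02% of all 32851 windows. The RUNX motif TGTGGT was present in 1 window, that of Runx3, where it occurred 2 times, against 14.0% of all windows. The GATA motif AGATAA and the T-box motif AGGTGT were in none of the 11, against 9.99% and 11.8% of all. A match is a description of letters, and binding was not analysed here.

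Tbx21 and Eomes, related T-box factors of the Th1 and cytotoxic programmes, were both lower without Irf1, Tbx21 modestly and Eomes more. Tbx21 (ENSMUSG00000001444, chr11:97098071-97115331, - strand) had normalized counts of 1549, 1509 and 1254 in WT replicates 1, 2 and 3 and of 1155, 1152 and 1039 in Irf1-/- replicates 1, 2 and 3. The groups did not overlap, and WT replicate 3 lay nearest to the Irf1-/- libraries. Means were 1437 ± 160 and 1115 ± 66.0 (SD, n = 3), and the log2 fold change was -0.36 (95% interval -0.54 to -0.18, adjusted p = 0.0108, limma). Without WT replicate 1 or WT replicate 2 the call was lost, with values of -0.30 and -0.32. Against WT replicate 3 alone, among the Xist-holding libraries, it was -0.17 (adjusted p = 0.334, limma).

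Eomes (ENSMUSG00000032446, chr9:118478212-118486132, + strand) was a rare transcript, with 33.7, 33.7 and 51.0 normalized counts in WT and 8.36, 5.55 and 20.5 in Irf1-/- libraries, from 4 to 83 reads. The 6 values did not overlap between genotypes, and replicate 3 was the highest of each. Its mean fell from 39.5 ± 10.0 to 11.5 ± 7.92 (SD, n = 3), 3.45-fold, with a log2 fold change of -1.86 (95% interval -2.76 to -0.96, adjusted p = 0.00869, limma). Among the Xist-holding libraries it was -2.25 (adjusted p = 0.0598, limma). Cd8a and Cd8b1 are markers of CD8 T cells, in which Eomes is also made. Their sum was 32.4 to 41.2 in WT and 20.3 to 30.7 in Irf1-/- libraries. Most of it was Cd8b1, and Cd8a had 2 to 5 reads in each library. The part of such cells in the Eomes value was not tested. In such bulk samples fewer cells of a type and less RNA per cell cannot be told apart. In each library Eomes relative to Tbx21 was lower without Irf1, at log2 ratios of -5.48, -5.44 and -4.59 in WT and -6.95, -7.46 and -5.60 in Irf1-/- libraries. The difference of -1.50 had an exact permutation p of 0.1, the smallest that 3 against 3 allows, or 0.167 after adjustment over 5 ratios, that of Prdm1 to Bcl6 included. In the libraries with Xist it was -2.08.

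Hlx, a homeobox gene that works with T-bet in Th1 cells (ENSMUSG00000039377, chr1:184727140-184732619, - strand), had 1 read in each library except Irf1-/- replicate 2, which had 4. This is at or near the limit of 3 reads, a normalized count of 1.84 to 4.16 by library, and no fold is given.

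Runx3 and Runx1 bind the same DNA sequence with a shared partner, CBFβ, and they moved in opposite directions. Runx3, which acts with T-bet in Th1 cells (ENSMUSG00000070691, chr4:135120652-135177990, + strand), had 1675, 1672 and 1754 normalized counts in WT and 2051, 2059 and 1860.3 in Irf1-/- libraries. The Irf1-/- values all lay above the WT values, with replicate 3 of each genotype closest to the other. The mean rose 1.17-fold, from 1700.2 ± 46.3 to 1990.3 ± 113 (SD, n = 3), a log2 fold change of 0.23 (95% interval 0.10 to 0.35, adjusted p = 0.0172, limma). Runx1 (ENSMUSG00000022952, chr16:92601466-92826149, - strand), which naive T cells express, had 844, 912 and 806 in WT and 708, 702 and 732 in Irf1-/- libraries. No Irf1-/- value reached the lowest WT value, and the mean fell from 854 ± 54.1 to 714 ± 16.2 (SD, n = 3), a log2 fold change of -0.26 (95% interval -0.40 to -0.11, adjusted p = 0.0166, limma).

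Both calls were lost when any one of WT replicates 1 and 2 and Irf1-/- replicates 1 and 2 was left out, at 0.20 to 0.22 for Runx3 and -0.26 to -0.21 for Runx1. Among the Xist-holding libraries Runx3 differed by 0.18 (adjusted p = 0.270, limma) and Runx1 by -0.17 (adjusted p = 0.318, limma). In replicates 3 alone, the deepest libraries, the differences were 0.085 and -0.14. The log2 ratio of Runx3 to Runx1 was 0.99, 0.87 and 1.12 in WT and 1.53, 1.55 and 1.34 in Irf1-/- libraries, with no overlap. It rose by 0.48 (exact permutation p = 0.1, the smallest possible, and 0.167 adjusted over the 5 ratios), and by 0.36 in the libraries with Xist, 0.61 in replicates 1 and 2 and 0.22 in replicates 3. Cbfb, the gene of the shared partner, fell from 1849 ± 87.3 to 1534 ± 51.4 (log2 fold change -0.27, adjusted p = 0.00693, limma).

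Gata3 and Maf both act in Th2 cells, where GATA-3 is the lineage factor and c-Maf, encoded by Maf, drives Il4 and, in several T cell types, Il10. Gata3 (ENSMUSG00000015619, chr2:9857078-9890034, - strand) had 1589.9, 1704 and 1992 normalized counts in WT and 1621, 1631 and 2324 in Irf1-/- libraries. The groups overlapped, with replicate 3 the highest of each. The log2 fold change was 0.06 with a 95% interval from -0.22 to 0.35 (adjusted p = 0.769, limma). The interval leaves room for a change of either sign, and the sign turned in some alternatives, among them the libraries with Xist (-0.12, adjusted p = 0.736, limma). The log2 ratio of Tbx21 to Gata3, a common measure of Th1 against Th2 balance, was -0.04, -0.18 and -0.67 in WT and -0.49, -0.50 and -1.16 in Irf1-/- libraries. WT replicate 3 lay among the Irf1-/- values, and the difference of -0.42 had an exact permutation p of 0.3 (0.375 adjusted). Against WT replicate 3 alone, in the libraries with Xist, it was -0.049.

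Over all 6 libraries Maf showed the largest change among the factors. Its normalized counts (ENSMUSG00000055435, chr8:115682942-115707794, - strand) were 79.9, 61.3 and 54.1 in WT and 392.8, 321.7 and 262.7 in Irf1-/- libraries, on 51 to 88 and 232 to 411 reads. The lowest Irf1-/- library was well above the highest WT library. The mean rose 5.0-fold, from 65.1 ± 13.3 to 326 ± 65.2 (SD, n = 3), with a log2 fold change of 2.31 (95% interval 1.92 to 2.69, adjusted p = 1.52e-05, limma). Of the 11379 genes, 40 had a greater positive log2 fold change, and 0.668% a greater change of either sign. Among the Xist-holding libraries the value was 2.55, in replicates 1 and 2 alone 2.33 and in replicates 3 alone 2.26. The call held in each of the 20 alternatives with a test, with values from 2.16 to 2.55 over all 21. Maf relative to Gata3 rose by 2.24 on the log2 scale, without overlap (exact permutation p = 0.1, the smallest possible, 0.167 adjusted), and by 2.67 in the libraries with Xist. Maf is also made in myeloid cells. Beside the 392.8, 321.7 and 262.7 normalized counts of Maf in Irf1-/- replicates 1, 2 and 3, the myeloid marker sums were 199.4, 730.9 and 42.8, and their part in the Maf value was not tested. The antisense gene Gm15655, which shares 440 exon bases with Maf, was at 0 in all libraries.

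Bcl6 and Prdm1 encode repressors that act against each other in Tfh and B cell fate. Bcl6 was lower, and Prdm1 had lower values in a range of few reads. Bcl6 (ENSMUSG00000022508, chr16:23965052-23988852, - strand) had 232.1, 217.6 and 140.8 normalized counts in WT and 113.4, 129.0 and 90.7 in Irf1-/- libraries. WT replicate 3 stood apart from the other two WT libraries and only a little above the highest Irf1-/- library. The mean fell 1.77-fold, from 197 ± 49.1 to 111 ± 19.2 (SD, n = 3), a log2 fold change of -0.80 (95% interval -1.23 to -0.38, adjusted p = 0.0128, limma). The call was lost without WT replicate 1 (-0.67) or WT replicate 2 (-0.71). Among the Xist-holding libraries it was -0.35 (adjusted p = 0.378, limma), and -0.38 (adjusted p = 0.139, limma) in a fit with a term for Y-linked transcripts.

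Prdm1 (ENSMUSG00000038151, chr10:44437177-44528501, - strand) was near the filter, at 11.2, 14.4 and 18.4 normalized counts in WT and 5.97, 6.93 and 3.20 in Irf1-/- libraries. These rest on 9, 12 and 30 reads in WT and on 5 reads in each Irf1-/- library. The groups did not overlap, and the mean fell 2.74-fold, from 14.7 ± 3.61 to 5.37 ± 1.94 (SD, n = 3; log2 fold change -1.33). Since the gene passed the minimum only through WT, no test is given. Among the Xist-holding libraries the value was -1.66, in replicates 1 and 2 alone -0.89 and in replicates 3 alone -2.21. Plasma cell markers, a cell type that also makes Prdm1, summed to 76.2 to 98.6 in WT and 41.5 to 62.1 in Irf1-/- libraries. Nearly all of this was Sdc1, while Jchain, which defines plasma cells, had 1 read in WT replicate 1 and 0 elsewhere. The part of such cells in the Prdm1 value was not tested. The log2 ratio of Prdm1 to Bcl6 was -4.25, -3.82 and -2.87 in WT and -4.04, -4.03 and -4.45 in Irf1-/- libraries, overlapping, with a difference of -0.53, for which no test is given either. This difference depended on the setting. It was 0.07 with a pseudocount of 10, 0.0030 in replicates 1 and 2, -1.58 in replicates 3, -1.31 in the libraries with Xist and -0.14 without WT replicate 3.

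**Figure D2:**
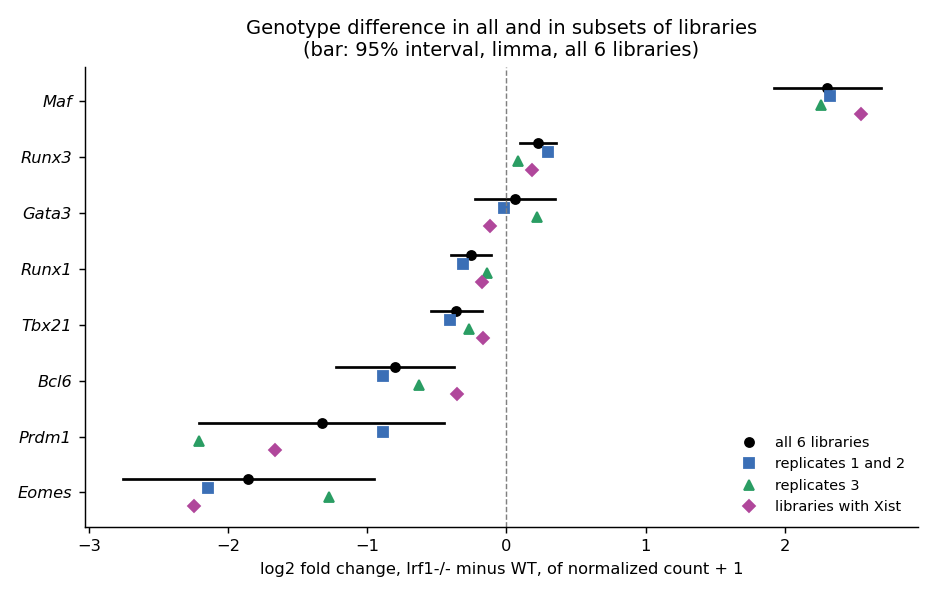
Log2 fold change (Irf1-/- minus WT, normalized count plus 1) of the 8 factors in the fit. Markers show all 6 libraries, replicates 1 and 2, replicates 3 and the libraries with Xist. Bars are 95% limma intervals over all 6. The bar of Prdm1, which passed the minimum only through WT, is not used as a test. The 4 markers of Maf stay between 2.26 and 2.55, and Gata3 lies on both sides of 0. Tbx21 and Bcl6 come nearer to 0 in the Xist-holding libraries, at -0.17 and -0.35, and are at -0.27 and -0.63 in replicates 3.

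**Figure D3:**
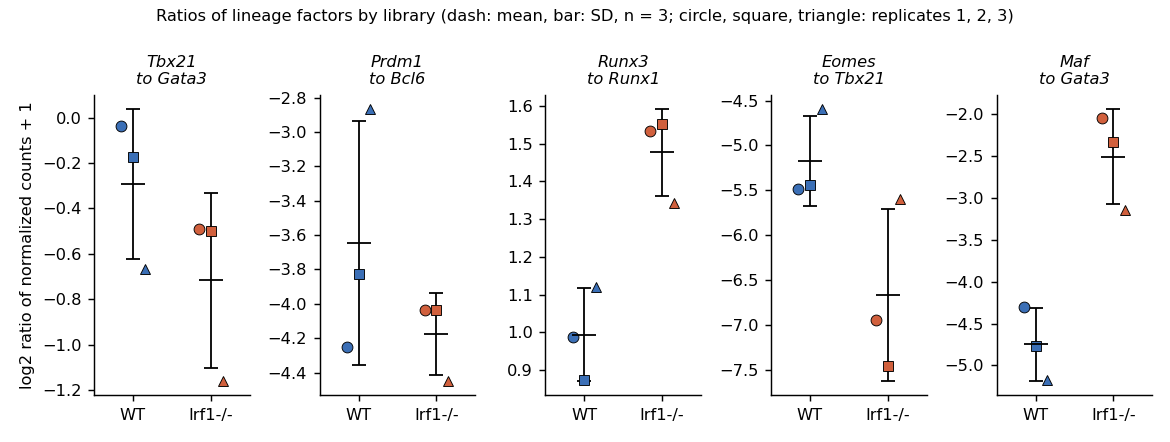
Log2 ratios of normalized counts (plus 1) of 5 pairs of factors by library, each panel with its own axis; dashes are means, bars SD (n = 3), and circles, squares and triangles replicates 1, 2 and 3. Genotypes are apart for Runx3 to Runx1, Eomes to Tbx21 and Maf to Gata3 and overlap for Tbx21 to Gata3 and Prdm1 to Bcl6.

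Levels of different genes can be compared only per length, here as the normalized count per kilobase of merged exons. Tbx21 was the most abundant factor in WT cells at 578 ± 64.3, before Gata3 at 443 ± 52.1 and Runx3 at 339.8 ± 9.26 (SD, n = 3). Runx1 at 71.0, Bcl6 at 29.4, Eomes at 9.50, Maf at 7.90, Prdm1 at 2.63 and Hlx at 0.448 followed on this per-kilobase scale. Among neighbours in this order only Eomes and Maf overlapped over the 3 WT libraries. In Irf1-/- cells the order was Gata3 at 467, Tbx21 at 448, Runx3 at 398, Runx1 at 59.4, Maf at 39.5, Bcl6 at 16.6 and Eomes at 2.76, then Hlx at 1.08 and Prdm1 at 0.962. There Gata3 overlapped both Tbx21 and Runx3, and Hlx overlapped both Eomes and Prdm1. Gata3 was at 408, 410 and 584 in Irf1-/- replicates 1, 2 and 3, and only replicate 3 placed it above Tbx21. Maf thus went from rank 7 to rank 5 and passed Eomes and Bcl6, and Tbx21 went from rank 1 to rank 2 in means that overlapped with Gata3.

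**Figure D4:**
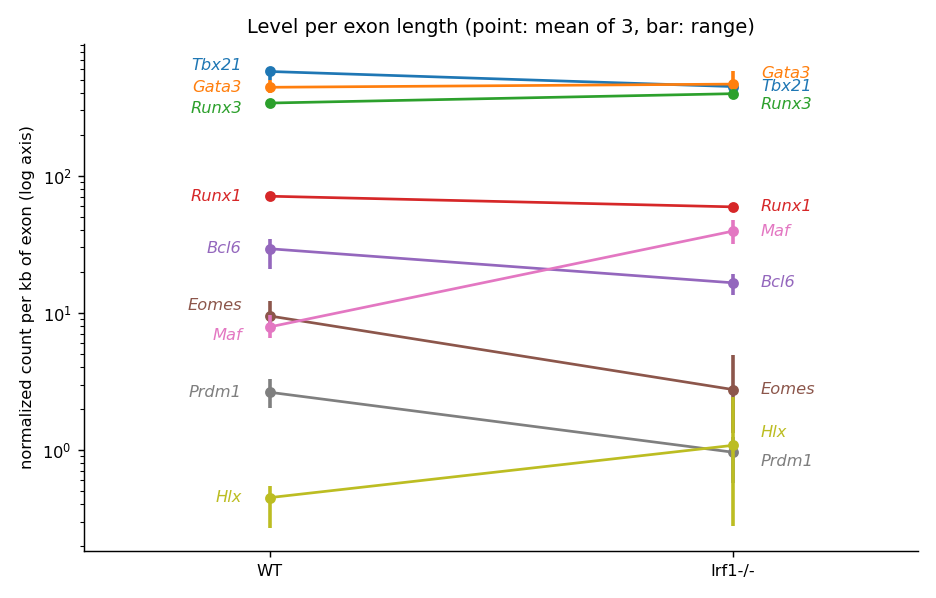
Normalized count per kilobase of merged exons on a log axis for the 9 factors in WT and Irf1-/- cells; points are means of 3 libraries, vertical bars their range, and lines join the same gene. Maf climbs from 7.90 to 39.5 and crosses Eomes and Bcl6, while Tbx21, Gata3 and Runx3 stay together at the top between 339.8 and 578.

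Genes whose pattern over the 6 libraries was closest to each of the 6 called factors were found by Pearson's r on log2 values among 8225 genes with a mean of at least 100, as a description over libraries that share the same split by genotype. For Tbx21 these were Dglucy (r = 0.9996), Mbp and Ppp1r10, for Eomes Nek7 (r = 0.999), Rb1 and C2cd3, and for Bcl6 Lrch1 (r = 0.996), Spata13 and again Dglucy. For Runx3 they were Uqcr11 (r = 0.992), Crip1 and Chid1, and for Runx1 Prpsap2 (r = 0.992), Memo1 and Vps13a. Maf was closest to Man2a2 (r = 0.994), Atox1 and Smox.

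Genes linked to the factors were counted in 6 lists with 132 genes, written from general knowledge. Of the 111 tested, 27 were lower and 23 higher in Irf1-/- cells, 45.0% in all, with a median log2 fold change of -0.04. The median over all 11379 genes was -0.0037. Over all genes 23.7% were called, but the lists were chosen with earlier results of these data known, and nothing is read from the difference. In the libraries with Xist 12 were lower and 11 higher. Il4 and Entpd1 among the lower and Il10 among the higher genes passed the minimum of 10 only through the genotype in which they are high, and their calls support nothing.

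Other fate regulators had 12 lower and 10 higher genes of 43 tested, and 3 and 4 in the libraries with Xist. Batf3, an AP-1 family partner of IRF4 and IRF8, rose 2.90-fold (232 ± 79.7 to 672 ± 26.6, SD, n = 3; log2 fold change 1.58). Nfil3 (1.23) and Foxp3, the factor of regulatory T cells (0.89), were also higher. The Foxp3 values were 189.7, 172 and 183 in WT and 331, 337 and 343 in Irf1-/- libraries, far apart. Lower were Ikzf2, which encodes Helios (-0.89), Tox (-0.58) and Bhlhe40 (-0.48).

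Th1-linked effector genes had 1 lower and 4 higher genes of 15 tested (1 and 2 with Xist). Nkg7, a cytotoxic granule gene, fell (432 ± 79.1 to 225 ± 8.96, SD, n = 3; -0.92), while Lta, the gene of lymphotoxin α (0.74), and Il2rb, a chain of the IL-2 receptor (0.38), rose. Il2rb is also used outside Th1 cells. Neither Ifng (log2 fold change -0.36, adjusted p = 0.530, limma) nor Cxcr3 (0.04, adjusted p = 0.887, limma), both targets of T-bet and named after their values were seen, was called. Another 9 of the 24 genes were below the minimum, Prf1 and Ccl5 among them.

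Among 9 tested Th2-linked genes 2 were lower and 2 higher (1 and 0 with Xist). Il24 (1.04) and Il4ra, a chain of the IL-4 receptor (0.77), rose, and the chemokine receptor Ccr8 fell by 0.25 on the log2 scale. Il4 itself, a target of both GATA-3 and c-Maf, fell from 32.4, 38.5 and 67.6 to 11.9, 8.32 and 7.67 normalized counts (log2 fold change -2.15), against the direction of Maf. It was below the mean of 100 set for named genes and was chosen after its values were seen, as were Il13 (0.15, adjusted p = 0.628, limma) and the Il10 and Entpd1 values that follow.

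The Prdm1-linked and Maf-linked genes had 2 lower and 2 higher of 8 in the fit (1 and 2 with Xist), and these include Entpd1 and Il10, whose calls are no support. Il10, a target of c-Maf and Blimp-1, was at 2.50, 3.61 and 3.07 normalized counts in WT and 20.3, 37.4 and 25.6 in Irf1-/- libraries. The WT libraries had 2, 3 and 5 reads, so that the fold is uncertain (log2 fold change 2.79). Entpd1, which encodes CD39, fell from 70.7 ± 10.4 to 8.34 ± 2.24 (SD, n = 3; -2.96). Il2, which Blimp-1 represses, was lower (213 ± 38.1 to 99.1 ± 39.2, SD, n = 3; -1.15).

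Of 18 tested Tfh-linked and Bcl6-linked genes, 7 were lower and 2 higher (5 and 2 with Xist), and the median log2 fold change was -0.10. Lower were Il7r (-1.33), Gpr183, a migration receptor (-0.86), and Sh2d1a, which encodes the adaptor SAP that Tfh cells need for help to B cells (-0.77). Pou2af1 (1.56) and S1pr1, the exit receptor of lymphoid organs (0.99), were higher. B cell markers, the cell type in which Pou2af1 is best known, summed to 18.7 to 27.7 in WT and 35.1 to 43.0 in Irf1-/- libraries, and their part in the Pou2af1 value was not tested. Il21 was below the minimum. Cofactors of the lineage factors had 3 lower and 3 higher genes of 18 (1 and 1 with Xist). Tle1, a corepressor of RUNX factors (1.14), Tle3 (0.39) and the histone methyltransferase gene Ehmt2 (0.19) rose, and Bcor, a corepressor of BCL-6 (-0.56), Cbfb (-0.27) and Ncor1 (-0.16) fell.

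**Figure D5:**
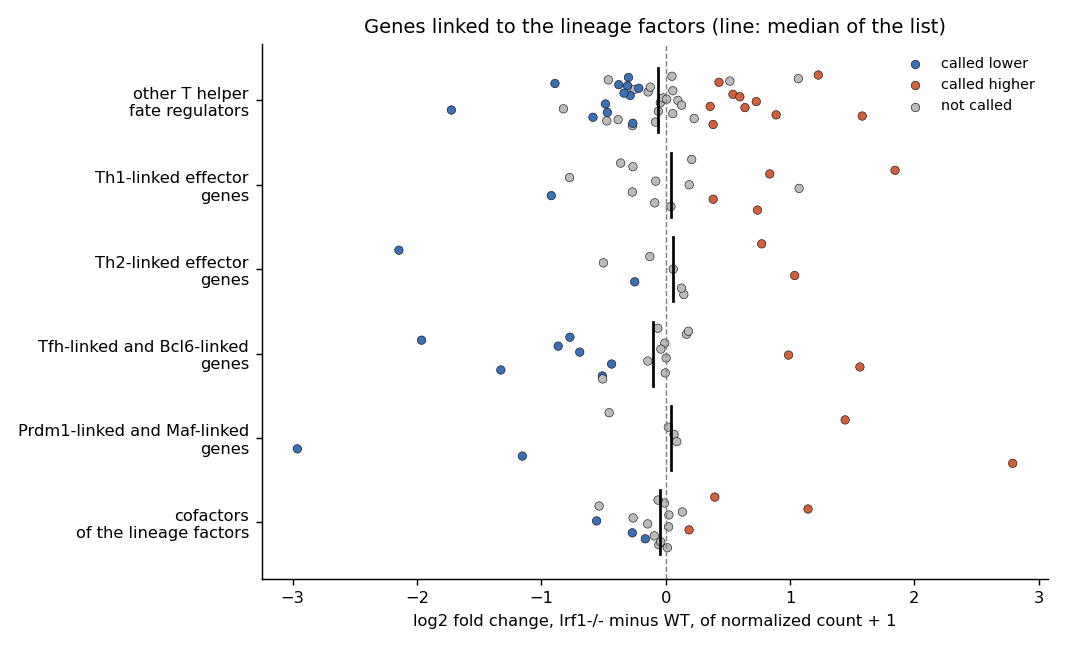
Log2 fold changes (Irf1-/- minus WT, normalized count plus 1) of the tested genes in the 6 linked lists; each point is a gene, coloured by its call, and black lines are list medians, which lie between -0.10 and 0.06. Called genes lie on both sides of 0 in every list, and the extremes are Entpd1 at -2.96 and Il10 at 2.79.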

How the data were processed

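Poly(A) RNA of 6 Th9 cultures, 3 per genotype, was sequenced as single reads. According to the submitters' processing notes, the authors used STAR 2.4.0b on GRCm38, featureCounts and DESeq2 1.12.3. The signal deposited by the authors is a normalized count, a read count divided by a library size factor. Whole reads were recovered for 100% of non-zero values (tolerance 0.1 read), on 5639788 to 13348230 reads on genes per library. How the counting treated strand was not given in the sources used here, so antisense overlaps are uncertain. Overlapping genes of the factors that are in the table had at most 14.1 normalized counts.

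Genotypes were compared with limma 3.58.1 (R 4.3.3; eBayes with a mean-variance trend) on log2(normalized count + 1), for the 11379 genes whose mean reached 10, with p-values adjusted by Benjamini-Hochberg over all of them and a threshold of 0.05. A fold change on this scale understates that of low genes. Ratios of factors were compared by exact two-sided permutation tests. edgeR 4.0.16 and DESeq2 1.42.0 on recovered reads, pseudocounts of 0.1 and 10, no filter or a minimum of 50, a fit without trend, TMM factors, quantile normalization, a replicate block, a Y-linked term, subsets of libraries and the omission of each library were alternatives. Tested on simulated data limma recovered 87% of 100 genes changed by 1 and 99% of 100 changed by 2 on the log2 scale, among 11379, with 19 false calls. The simulated libraries were drawn independently of each other. The simulation therefore does not cover the likeness of replicates 1 and 2 within each genotype.

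The factors and the lists were chosen with earlier results of these data known. Named genes are the 9 factors, Irf1, up to 3 genes per direction and list with the largest change among called genes that averaged 100 or more in the higher genotype, and the 3 genes most like each called factor. The text marks genes named outside this rule. Exon lengths and positions come from GENCODE M21 and promoters from RefSeq, with entries for 8 of the 9 factors and none for Maf. Only windows outside annotated exons are printed. Protein sequences were not analysed here.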

Additional observations from a re-analysis of the deposited data

How the results depend on the processing

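The sign held in every alternative for 7 of the 8 factors in the fit, and in 16 of 21 for Gata3. Maf was called in all 20 alternatives with a test. The calls of Tbx21, Eomes, Bcl6, Runx3 and Runx1 were each lost in 2 to 9 alternatives. Prdm1 carries no test here, since it passed the minimum only through WT, and its values are listed apart. Without the mean-variance trend the values of Tbx21, Bcl6, Runx3 and Runx1, -0.36, -0.80, 0.23 and -0.26, were no longer called. With a Y-linked term in the fit Tbx21 (-0.19), Bcl6 (-0.38), Runx3 (0.20) and Runx1 (-0.19) were not called. In the libraries with Xist Tbx21 (-0.17), Eomes (-2.25), Bcl6 (-0.35), Runx3 (0.18) and Runx1 (-0.17) were not called. With replicates 1 and 2 of a genotype averaged as 1 sample, an alternative chosen after seeing the data, Tbx21 (-0.34), Eomes (-1.70), Bcl6 (-0.76), Runx3 (0.19) and Runx1 (-0.23) were not called. In replicates 3 alone, where no test is possible, Runx3 was at 0.085 and Runx1 at -0.14. Runx1 was not called after quantile normalization (-0.21, adjusted p = 0.0504, limma). The value of Prdm1 was -1.33 without the filter, -1.54 in DESeq2, -1.55 with the Y-linked term, -1.66 in the libraries with Xist, -0.89 in replicates 1 and 2 alone, -2.21 in replicates 3 and -1.55 with averaged replicates.

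With each library left out in turn, Tbx21 ranged from -0.46 to -0.30, Bcl6 from -1.03 to -0.66, Runx3 from 0.20 to 0.27, Runx1 from -0.30 to -0.21 and Prdm1 from -1.51 to -1.05. The factors called lower ranged from 1 to 4 and those called higher from 1 to 2, and over all genes the calls ranged from 826 to 1472 lower and 799 to 1372 higher. Fewest genes were called without WT replicate 1 or 2.

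In place of the 4 factors called lower, 3 were called with a mean of at least 50, which leaves out Eomes, 1 without the trend (2 if Prdm1 were counted), 1 with the Y-linked term and 0 in the libraries with Xist and 0 with averaged replicates. The 2 called higher became 1 without the trend, 1 with the Y-linked term, 1 with Xist and 1 with averaging, Maf in each case. Over all genes 1406 lower calls became 807 without the trend, 392 with Xist and 394 with averaging, and 1293 higher calls became 856 with the Y-linked term, 392 with Xist and 413 with averaging. Of the genes in the 6 lists, 27 lower calls became 12 with Xist and 10 with averaging, and 23 higher calls 15 without the trend, 11 with Xist and 13 with averaging. With a replicate block 2116 genes were called lower, and no call among the factors changed. The replicate numbers were not taken as pairs: deviations of same-numbered libraries correlated at 0.0922, 0.269 and 0.321, the first under 0.1, although every library correlated best with its own number.

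Of the 5 ratios, that of Prdm1 to Bcl6 turned sign (0.07 with a pseudocount of 10, 0.0030 in replicates 1 and 2), and the other 4 kept theirs.

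Depth limits Hlx, Prdm1 and Eomes, with at most 4, 30 and 83 reads per library. Intervals over 3 libraries do not exclude small changes of Gata3.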
